A study of Mus musculus with 8 samples.

Results

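The genes described here are 33 genes of transforming growth factor beta (TGF-beta), activin and bone morphogenetic protein (BMP) signalling, chosen by name from the 49315 genes listed for each library: ligands, the proteins that store or block them, receptors, SMAD proteins and the ID target genes. They were measured by RNA sequencing in immortalized mouse embryonic fibroblasts (MEFs), 4 libraries labelled Opa1-/- and 4 labelled Opa1-/- + OPA1. Opa1 encodes a mitochondrial dynamin-like GTPase that acts in fusion of the inner membrane, and the design asks what its loss does to the transcriptome. The cells of both groups carry the Opa1-/- genotype and were cultured alike without treatment, and the second group also carries reconstituted OPA1, so the comparison is with reconstituted cells and not with wild-type cells. The sources used here do not say whether a group is a clone, how OPA1 was put back or whether libraries came from separate cultures. The p-values therefore rest on library-to-library spread alone, part or all of which could be technical.

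In this pathway, secreted dimers of the TGF-beta family bring type I and type II serine/threonine kinase receptors together on the cell surface. TGF-betas and activins act mainly through SMAD2 and SMAD3, BMPs mainly through SMAD1 and SMAD5, and both branches share SMAD4. TGF-beta is secreted in a latent complex with a latent TGF-beta binding protein in the extracellular matrix, while activins and BMPs are held back by secreted antagonists such as follistatin and gremlin. In fibroblasts the pathway is known for its control of matrix production, and SMAD6, SMAD7 and the ID genes are classical feedback and target genes.

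Levels are given as scaled TPM, that is, TPM (transcript abundance corrected for gene length and library total) brought to a common level across libraries by a trimmed mean of log ratios, and as mean ± SD with n = 4 a group. Differences are Opa1-/- minus reconstituted on the log2(scaled TPM + 1) scale, which understates the change of low genes. A gene was called higher or lower in Opa1-/- at a Benjamini-Hochberg adjusted p below 0.05 over 14272 genes, by limma's two-sided test with a mean-variance trend; every adjusted p below is from that test unless another is named. Of the 33 genes 31 reached 1 TPM in at least 4 libraries and were tested, and Inhbb and Bmp2 did not.

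The libraries held an estimated 53.0 M to 57.6 M reads, and between 14014 and 14551 genes reached 1 TPM. Opa1 itself stood at 14.8, 14.7, 13.7 and 12.5 scaled TPM in the Opa1-/- libraries and at 15.6, 14.6, 14.5 and 14.5 in the reconstituted ones, a log2 difference of -0.09 ± 0.06 (SE) with adjusted p = 0.306. The gene total thus does not separate the groups, and it cannot check the labels as long as the disrupted part of the gene and the added sequence are not known; Opa1-/- and reconstituted below mean libraries so labelled. Of 8 fibroblast markers 7 were tested, with a summed level of 990 to 1198 in Opa1-/- and 1424 to 1446 in reconstituted libraries, while Pdgfra, a platelet-derived growth factor receptor of fibroblasts, stayed below 1 in every library. The 6 endothelial markers were all below 1 in every library, and of the epithelial markers only Cdh1 (E-cadherin) was above it, at 12.9 ± 1.76 against 8.10 ± 0.907. In Opa1-/- library 4 the level was the lowest of its group for 17 of the 31 tested genes, against 6 of 31 for reconstituted library 4, and libraries numbered 3 had the smallest share of TPM in 4 small and ribosomal RNA genes within each group; values without these libraries are given where they matter.

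Among the 31 tested genes 6 were higher in Opa1-/- (Ltbp3, Tgfbr3, Bmp4, Grem1, Smad3 and Smad6), 9 were lower (Tgfb2, Tgfb3, Ltbp2, Inhba, Acvr1, Acvr2a, Bmpr1a, Bmp1 and Smad7) and 16 were not called. That is 48.4% called, beside 33% of all tested genes, of which 16.3% were higher and 16.8% lower. The groups did not overlap for 15 of the 31 (48.4%), beside 36.3% of all tested genes; the set includes Smad5, which was not called, and lacks Smad3, which was. The median log2 difference of the tested members was -0.08 and the median size of the difference 0.22, against -0.00 and 0.16 over all tested genes. In this fit called genes were found in every role except the ID genes. Both directions occurred among the latent TGF-beta binding proteins, the inhibitory SMADs, and the BMP ligands, proteinase and antagonist, and in no other role. The widest differences were in genes of secreted proteins. Inhba, the gene of the activin beta A subunit, was 2.38-fold lower and Grem1, the gene of the BMP antagonist gremlin, was 2.13-fold higher. Those were the only called members that differed 2-fold or more. Without both libraries numbered 3 the counts were 3 higher and 8 lower, while 23.7% of all tested genes were called. Without reconstituted library 3 alone they were 3 and 8 (25.1% of all tested genes called), and without Opa1-/- library 4 they were 7 and 9 (38% called). The tested members have longer transcripts than other genes (median exon length 5686 against 3709.5 bases), and with each library's trend with length and GC content removed 6 were higher and 7 lower (35.7% of all tested genes called).

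**Figure D1:**
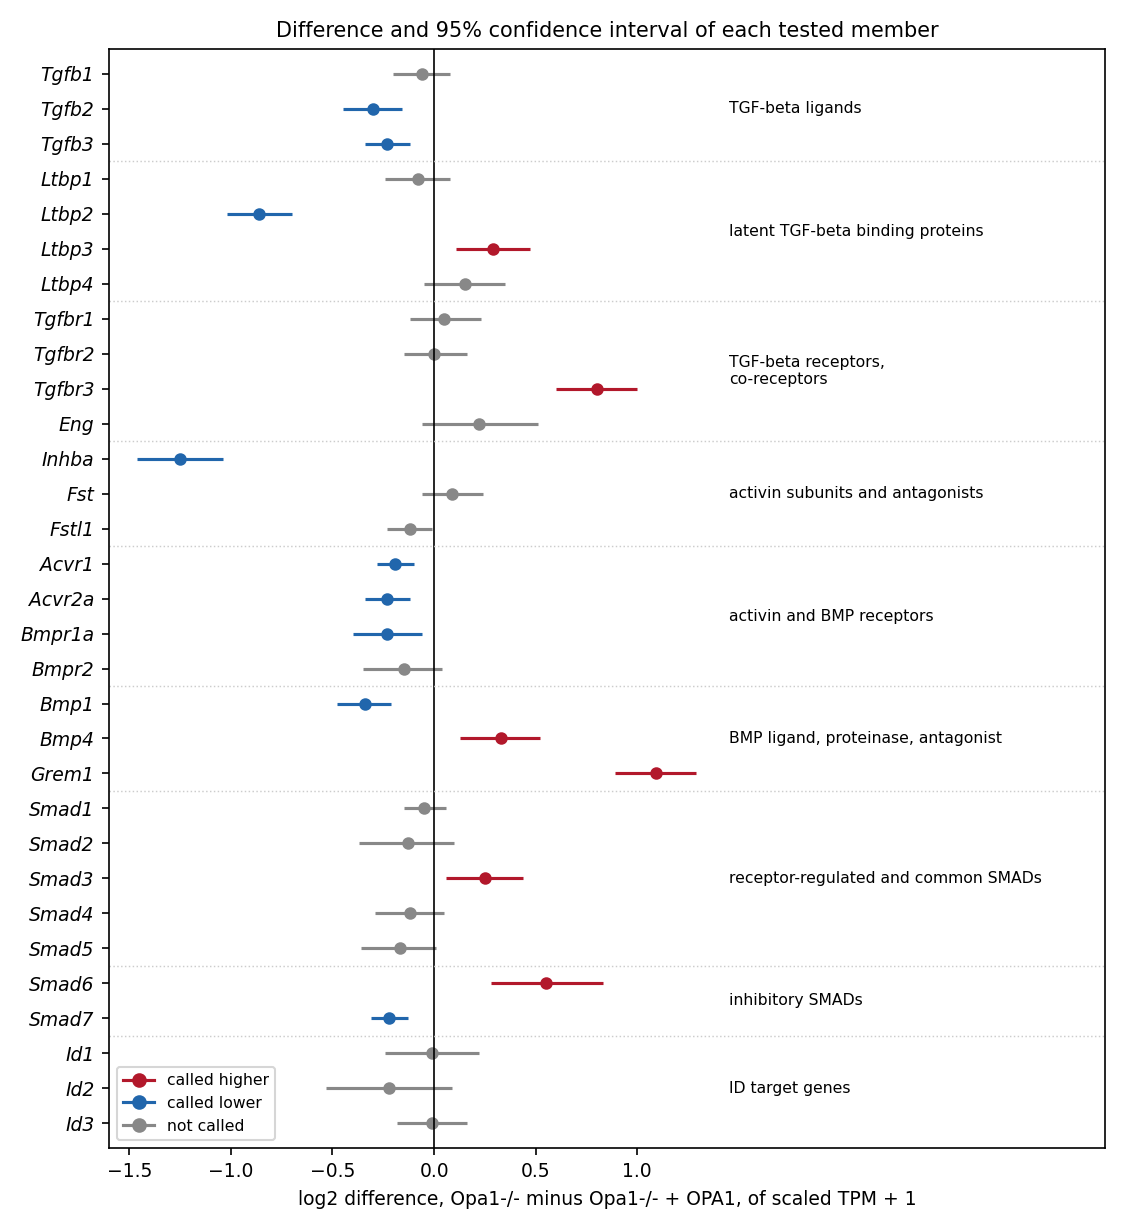
Log2 difference (Opa1-/- minus reconstituted, of scaled TPM + 1) of the 31 tested members, by role; points are estimates over 4 libraries a group and bars 95% confidence intervals, red for called higher, blue for called lower and grey for not called. Inhba at -1.25 and Grem1 at 1.09 lie farthest from 0. Within the receptor-regulated and common SMADs Smad3 lies farthest from it, at 0.25, and within the ID genes Id2, at -0.22.

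The promoters of the members with the widest differences are shown. Of the 33 members 24 have an entry in the RefSeq promoter table (GRCm38.p6), and of the 5 widest differences all but Tgfbr3 do. The windows are chr13:16011601-16011850 for Inhba on the plus strand, chr2:113758649-113758898 for Grem1, chr12:84876533-84876741 for Ltbp2 and chr9:64022060-64022309 for Smad6, each on the minus strand, and they end at or before the annotated start. Capitals mark AGAC or its reverse complement GTCT, the short box that SMAD3 and SMAD4 bind, and GGCGCC, a GC-rich element known from BMP targets.
Inhba: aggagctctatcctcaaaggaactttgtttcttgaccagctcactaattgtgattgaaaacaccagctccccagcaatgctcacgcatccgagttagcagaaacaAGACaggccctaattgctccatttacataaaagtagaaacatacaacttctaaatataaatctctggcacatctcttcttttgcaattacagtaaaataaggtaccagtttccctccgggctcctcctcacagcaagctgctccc
Grem1: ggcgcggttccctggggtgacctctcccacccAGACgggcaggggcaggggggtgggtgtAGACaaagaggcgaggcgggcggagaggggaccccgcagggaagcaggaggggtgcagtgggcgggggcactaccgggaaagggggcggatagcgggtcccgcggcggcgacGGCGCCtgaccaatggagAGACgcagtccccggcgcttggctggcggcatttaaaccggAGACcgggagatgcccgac
Ltbp2: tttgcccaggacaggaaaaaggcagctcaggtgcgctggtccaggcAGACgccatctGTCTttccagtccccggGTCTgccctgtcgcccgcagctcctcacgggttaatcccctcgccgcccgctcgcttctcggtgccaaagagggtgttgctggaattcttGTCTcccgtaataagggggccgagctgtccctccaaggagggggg
Smad6: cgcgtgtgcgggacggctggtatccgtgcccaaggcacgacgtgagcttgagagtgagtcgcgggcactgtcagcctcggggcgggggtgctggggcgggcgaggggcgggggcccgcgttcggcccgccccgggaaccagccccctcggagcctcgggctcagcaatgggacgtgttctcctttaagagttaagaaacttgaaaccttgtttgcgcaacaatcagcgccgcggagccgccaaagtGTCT
The Inhba window holds 1 AGAC box in 250 bases at 43.2% GC, and the Grem1 window holds 4 boxes and 1 GGCGCC at 72% GC. The Ltbp2 window of 209 bases holds 4 boxes and the Smad6 window 1. An AGAC box on either strand is present in 82.9% of all 32851 promoter windows of 250 bases, with a median of 2, and GGCGCC in 9.59% (77.8% and 7.59% for 209 bases), so a box by itself sets no promoter apart. These matches describe letters in a window and say nothing of a factor bound there.

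The TGF-beta ligand genes were expressed at unequal levels, with Tgfb1 and Tgfb3 alike and Tgfb2 below them. Tgfb2 was lower in Opa1-/-, at 9.17, 9.70, 10.49 and 9.78 scaled TPM against 12.9, 13.0, 11.2 and 12.2. The highest Opa1-/- library lay below the lowest reconstituted one, and the log2 difference was -0.30 ± 0.06 (SE) with adjusted p = 0.00574. Tgfb3 stood at 23.6, 22.9, 25.3 and 22.1 in Opa1-/- and at 26.8, 28.4, 27.7 and 27.5 in reconstituted libraries, again without overlap (-0.23 ± 0.05, adjusted p = 0.00656). Its call ended with TPM as deposited (adjusted p = 0.065) and with the median of each chromosome removed (-0.13, adjusted p = 0.0798). Tgfb1, the ligand most often linked to fibrosis, stood at 26.9, 26.9, 23.8 and 22.8 against 26.4, 27.3, 25.6 and 25.3, groups that overlap. Its difference of -0.06 had a 95% interval of -0.20 to 0.08 (adjusted p = 0.506). Of the summed level of the 3 ligand genes, Tgfb1 made up 43.0% ± 2.60 in Opa1-/- and 39.6% ± 0.429 in reconstituted libraries.

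The latent TGF-beta binding proteins, which tether the latent complex to matrix or, for Ltbp2, bind fibrillin without binding TGF-beta itself, moved apart. Ltbp2 (ENSMUSG00000002020, chromosome 12, 84783212 to 84876532) stood at 6.003, 4.88, 5.89 and 5.67 scaled TPM in Opa1-/- and at 11.2, 10.1, 11.3 and 11.3 in reconstituted libraries. Every Opa1-/- library lay far below every reconstituted one, and the log2 difference was -0.86 ± 0.07 (SE) with adjusted p = 6.06e-05. Ltbp3, the most abundant member of this role, was higher in Opa1-/-, at 247, 225, 217 and 200 against 198, 195, 167 and 167, with only a narrow gap between the groups. Its difference of 0.29 ± 0.08 (adjusted p = 0.0224) lost its call without both libraries numbered 3 (0.26, adjusted p = 0.089), with no filter on low values (adjusted p = 0.0568), and without reconstituted library 3 (0.0687), reconstituted library 4 (0.0648), Opa1-/- library 1 (0.0526) or Opa1-/- library 2 (0.051). Ltbp1 was at 60.6 ± 6.17 against 63.9 ± 2.53 and Ltbp4 at 32.7 ± 4.59 against 29.1 ± 0.373, neither called (adjusted p = 0.422 and 0.226). Without Opa1-/- library 4 Ltbp4 was called higher (0.24, adjusted p = 0.00927). The level of Ltbp2 relative to Ltbp1 was 0.0928 ± 0.0074 in Opa1-/- and 0.171 ± 0.00433 in reconstituted libraries. Ltbp2 shares 9.34% of its exonic bases with the antisense gene D030025P21Rik, listed at no more than 2.48 TPM; without strand such reads cannot be told apart.

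Of the 4 TGF-beta receptor and co-receptor genes tested, Tgfbr3 alone was called (25%, beside 33% of all tested genes). Tgfbr3 (ENSMUSG00000029287, chromosome 5, 107106570 to 107289629) encodes betaglycan, which presents ligand, TGF-beta 2 above all, to the signalling receptors and also binds inhibin. It stood at 8.79, 8.30, 8.90 and 6.74 scaled TPM in Opa1-/- and at 4.62, 4.38, 3.96 and 4.11 in reconstituted libraries. The groups were well apart, with a log2 difference of 0.80 ± 0.09 (SE) and adjusted p = 0.000265. The type II receptor gene Tgfbr2, the most abundant of this role, was at 22.8, 21.6, 25.7 and 20.3 against 23.2, 23.0, 21.9 and 21.8, and the type I receptor gene Tgfbr1 at 15.3 ± 1.68 against 14.6 ± 0.845. The difference of Tgfbr2 was 0.00 with a 95% interval of -0.15 to 0.16, and that of Tgfbr1 was 0.05 with an interval of -0.12 to 0.23. Endoglin (Eng), a co-receptor known mainly from endothelium, was at 1.55 ± 0.303 against 1.18 ± 0.231 and was not called (adjusted p = 0.21); 61 of its exonic bases overlap Fpgs, which reached 38.6 TPM. The level of Tgfbr3 relative to Tgfbr2 was 0.362 ± 0.0269 in Opa1-/- and 0.190 ± 0.00772 in reconstituted libraries.

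Inhba differed more than any other tested member. Inhba (ENSMUSG00000041324, chromosome 13, 16011851 to 16031621) encodes the beta A subunit that forms activin A as a homodimer and inhibin A together with the alpha subunit of Inha; its promoter is the first shown above. It stood at 48.9, 47.99, 45.1 and 35.1 scaled TPM in Opa1-/- and at 107, 103, 107 and 107 in reconstituted libraries. No Opa1-/- library came near the reconstituted ones, and the log2 difference was -1.25 ± 0.09 (SE) with adjusted p = 3.99e-05. Follistatin (Fst), the secreted protein that binds and blocks activin, was at 5.82 ± 0.364 against 5.40 ± 0.312 and was not called (0.09, 95% interval -0.06 to 0.24, adjusted p = 0.323). The level of Inhba relative to Fst was 8.87, 7.60, 7.70 and 6.28 in Opa1-/- and 18.9, 18.5, 21.6 and 19.7 in reconstituted libraries. Fstl1, a secreted relative of follistatin and over all 8 libraries the most abundant gene of this role, was at 98.4, 97.2, 104 and 88.6 against 106, 106, 106 and 104 (-0.12, adjusted p = 0.0994), and it was called lower without Opa1-/- library 3 (-0.15, adjusted p = 0.0339). Inhbb, the gene of the beta B subunit, was near 0 throughout, with an estimated 19 reads over the 4 Opa1-/- libraries and 17 over the 4 reconstituted ones (0.0131 to 0.115 against 0.0253 to 0.0759 scaled TPM).

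**Figure D2:**
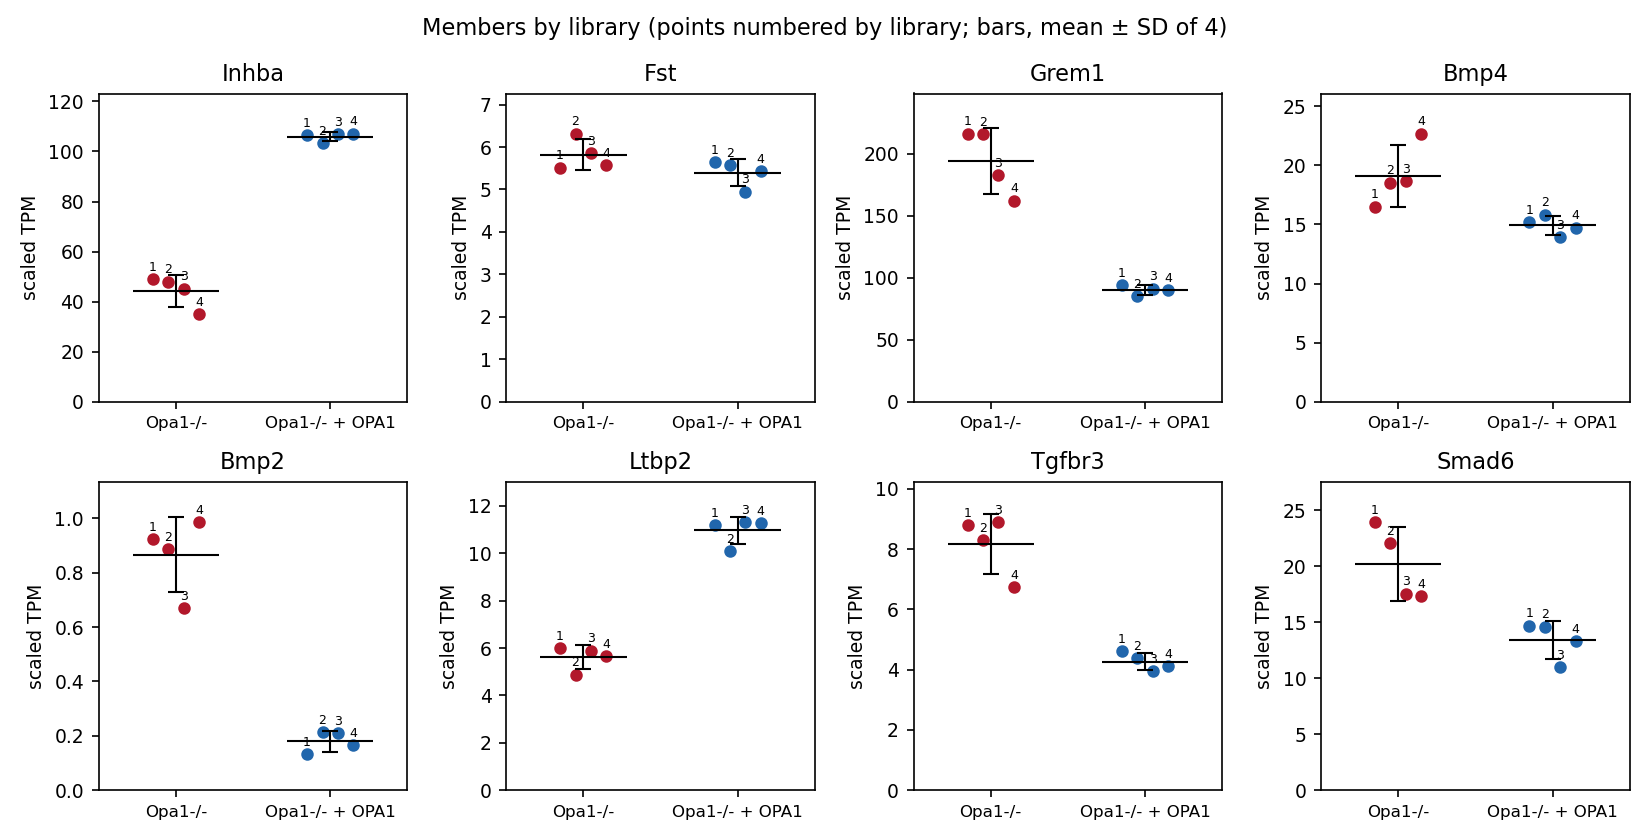
Scaled TPM of 8 members in each of the 8 libraries, numbered, with bars at the mean ± SD of 4; each vertical axis starts at 0. For Inhba and Ltbp2 the Opa1-/- libraries lie below all reconstituted ones, for Grem1, Bmp4, Bmp2, Tgfbr3 and Smad6 above them, and for Fst the groups overlap.

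The activin and BMP receptor genes differed little in size. Of 4 tested members, 3 were called, all lower in Opa1-/- (75%, beside 33% of all tested genes). Acvr1, a type I receptor of the BMP branch also named ALK2, stood at 20.7, 21.1, 21.7 and 21.04 scaled TPM in Opa1-/- and at 24.9, 24.0, 23.5 and 24.8 in reconstituted libraries. The groups did not overlap and the difference was -0.19 ± 0.04 (SE) on the log2 scale (adjusted p = 0.00601; with TPM as deposited 0.0572). Acvr2a, a type II receptor of activins and BMPs, stood at 7.76, 8.10, 7.80 and 8.43 against 9.78, 9.57, 9.39 and 9.53, also without overlap (-0.23 ± 0.05, adjusted p = 0.00663). With the trend with length and GC content removed it was no longer called (-0.13, adjusted p = 0.071, and 0.107 with the replicate block added), and 7.84% of its exonic bases overlap Orc4 on the other strand. Bmpr1a, a type I BMP receptor and the most abundant of this role, stood at 37.1, 37.2, 34.8 and 29.1 against 41.1, 38.6, 40.6 and 41.9, with library 4 the lowest of the Opa1-/- group. Its call was the least firm of the 3: the difference was -0.23 ± 0.07 with adjusted p = 0.0415, 0.0654 with the replicate number as a block, and -0.07 (adjusted p = 0.557) with chromosome medians removed. Without Opa1-/- library 4 it was -0.15 (adjusted p = 0.0176), and leaving out any library other than Opa1-/- libraries 1, 2 and 4 ended the call, with adjusted p from 0.0563 to 0.0992. Bmpr2, the type II BMP receptor, was at 14.9 ± 1.94 against 16.6 ± 0.544 and was not called (-0.15, adjusted p = 0.212). Receptor genes of these branches outside the members did not share the lower direction. Acvr1b was called higher (0.16, adjusted p = 0.038), though not in every alternative, and Acvr2b was not called (0.21, adjusted p = 0.152). Under the filter, Bmpr1b was at 0.694 ± 0.117 in Opa1-/- against 0.340 ± 0.0515 in reconstituted libraries and was not tested.

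On the BMP side, the antagonist gene Grem1 and the ligand gene Bmp4 were higher in Opa1-/- and the proteinase gene Bmp1 was lower, while Bmp2 lay under the filter. Grem1 (ENSMUSG00000074934, chromosome 2, 113746164 to 113758646) encodes gremlin, which binds and blocks BMP ligands. It stood at 216, 216, 183 and 162 scaled TPM in Opa1-/- and at 93.9, 85.0, 91.2 and 90.1 in reconstituted libraries. Its lowest Opa1-/- library was still far above every reconstituted one, and the log2 difference was 1.09 ± 0.09 (SE) with adjusted p = 5.89e-05. Bmp4 stood at 16.5, 18.5, 18.7 and 22.7 against 15.2, 15.8, 13.9 and 14.7, with a narrow gap between the groups and library 4 the highest of Opa1-/-. Its difference of 0.33 ± 0.09 (adjusted p = 0.0191) lost its call without both libraries numbered 3 (0.30, adjusted p = 0.0882) and without reconstituted library 3 (0.29, adjusted p = 0.0552), and was 0.49 (adjusted p = 0.00361) with chromosome medians removed. The level of Grem1 relative to Bmp4 was 13.1, 11.6, 9.80 and 7.15 in Opa1-/- and 6.17, 5.37, 6.55 and 6.11 in reconstituted libraries, so the antagonist stood higher against this ligand in all 4 Opa1-/- libraries.

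Bmp2, the gene of another BMP ligand, did not reach the filter of 1 TPM. It stood at 0.922, 0.886, 0.670 and 0.986 scaled TPM in Opa1-/- and at 0.132, 0.212, 0.209 and 0.166 in reconstituted libraries. This rests on an estimated 59, 57, 44 and 68 reads against 9, 14, 14 and 11, and the groups did not overlap. With no filter on low values the difference was 0.66 on the log2(scaled TPM + 1) scale (adjusted p = 0.000761), and limma-voom on the recovered reads gave 2.22 (adjusted p = 5e-05). Bmp1, which despite its name is the procollagen C-proteinase and also releases BMPs and latent TGF-beta from their binding partners, stood at 48.5, 42.4, 46.4 and 50.1 in Opa1-/- and at 63.4, 61.7, 56.6 and 57.0 in reconstituted libraries. It was lower without overlap (-0.34 ± 0.06, adjusted p = 0.00278), and its call ended with chromosome medians removed (-0.18, adjusted p = 0.0575). Bmp1, Bmp4 and Bmpr1a all lie on chromosome 14, whose median log2 difference was -0.17.

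Among the 5 SMAD genes that carry the signal, Smad3 alone was called (20%, beside 33% of all tested genes). Smad3 stood at 42.5, 40.0, 42.9 and 32.3 scaled TPM in Opa1-/- and at 33.8, 33.5, 32.9 and 31.2 in reconstituted libraries, with Opa1-/- library 4 inside the reconstituted range. The difference of 0.25 ± 0.08 (SE) on the log2 scale had adjusted p = 0.0495, and the call ended in 14 of 20 alternatives, with adjusted p from 0.0505 to 0.213. Among them were the removal of any library except Opa1-/- library 4, of both libraries numbered 3 (0.21, adjusted p = 0.179) and of chromosome medians (0.15, adjusted p = 0.213). Smad4, the common partner and the most abundant gene of this role, stood at 97.9, 94.9, 97.6 and 77.1 against 96.5, 95.7, 104 and 101. Smad2, the other SMAD of the TGF-beta and activin branch, stood at 78.4, 77.3, 77.6 and 55.0 against 76.7, 77.8, 79.7 and 79.0. For both genes 3 Opa1-/- libraries lay beside the reconstituted ones and library 4 lay far below, and neither was called (adjusted p = 0.273 and 0.37). The level of Smad3 relative to Smad2, taken within each library, was 0.543, 0.517, 0.553 and 0.588 in Opa1-/- and 0.441, 0.431, 0.412 and 0.395 in reconstituted libraries, and here library 4 did not stand low. The SMADs of the BMP branch were not called: Smad1 was at 13.5 ± 0.263 against 14.0 ± 0.596 (-0.05, 95% interval -0.15 to 0.06) and Smad5 at 27.5 ± 3.33 against 31.0 ± 0.653 (-0.17, -0.36 to 0.01).

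The inhibitory SMAD genes, both targets of the pathway that feed back on it, differed in opposite directions. Smad6, which mainly restrains the BMP branch, stood at 23.9, 22.1, 17.5 and 17.3 scaled TPM in Opa1-/- and at 14.7, 14.6, 10.99 and 13.3 in reconstituted libraries. It was higher without overlap, by 0.55 ± 0.12 (SE) on the log2 scale (adjusted p = 0.00828), although libraries 3 and 4 were the lowest in each group. Smad7, which restrains the TGF-beta and the BMP branch, stood at 33.5, 32.99, 31.0 and 31.2 against 38.0, 37.5, 38.0 and 36.9, lower by a small but even step (-0.22 ± 0.04, adjusted p = 0.00304). The level of Smad6 relative to Smad7 was 0.715, 0.669, 0.566 and 0.555 in Opa1-/- and 0.387, 0.389, 0.289 and 0.361 in reconstituted libraries. Both calls and both directions held in all 20 alternatives.

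**Figure D3:**
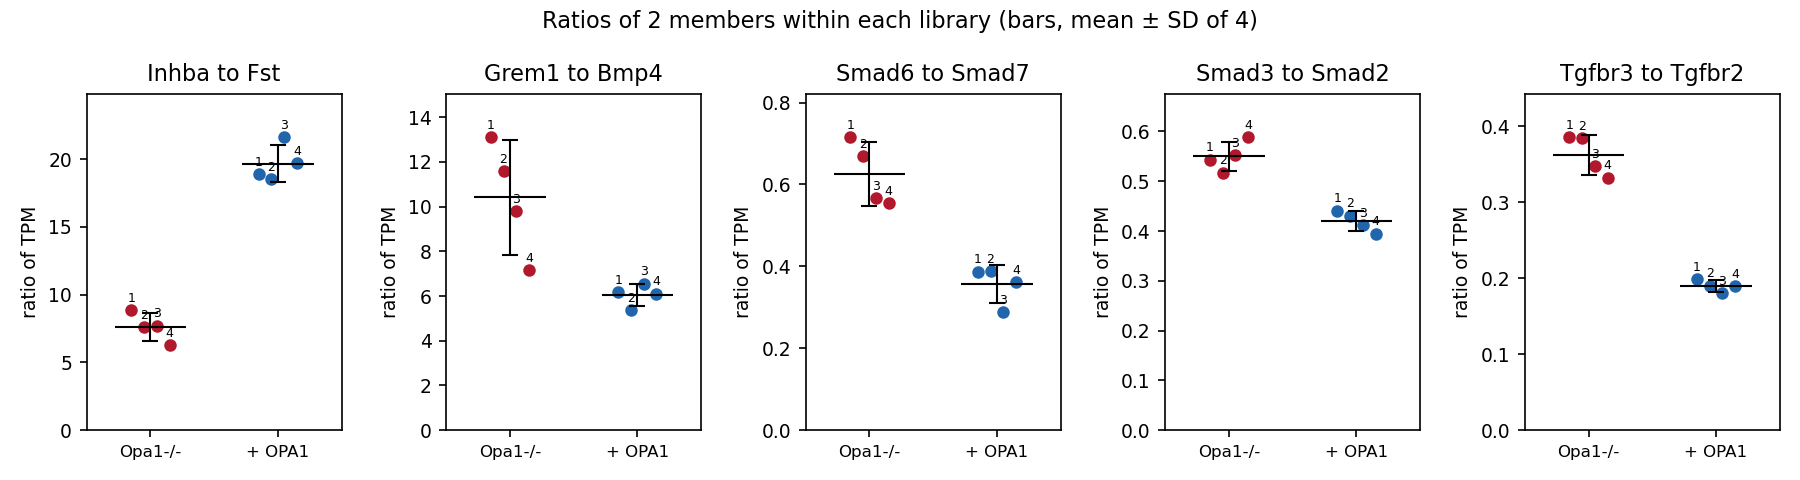
Ratio of the TPM of 2 members within each of the 8 libraries, numbered, with bars at the mean ± SD of 4; each vertical axis starts at 0. Opa1-/- libraries lie below all reconstituted ones for Inhba to Fst and above all of them for the other 4 ratios.

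The ID genes, whose helix-loop-helix proteins lack a DNA-binding region and are classical BMP targets, were not called. They were among the most abundant members, with Id2 and Id3 alike and Id1 below them. Id1 was at 176 ± 24.1 scaled TPM against 177 ± 13.2 (-0.01, 95% interval -0.24 to 0.22) and Id3 at 226, 232, 189 and 217 against 234, 229, 197 and 209 (-0.01, -0.18 to 0.16). Id2 stood at 228, 215, 157 and 178 in Opa1-/- and at 263, 246, 198 and 196 in reconstituted libraries, and was not called (-0.22, -0.53 to 0.09, adjusted p = 0.25). Within each library number Id2 was lower in the Opa1-/- library, and with the replicate number as a block it was called lower (-0.22, adjusted p = 0.012). In the same blocked fit 15 of the 31 members were called, 6 of them higher, beside 33.3% of all tested genes.

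**Figure D4:**
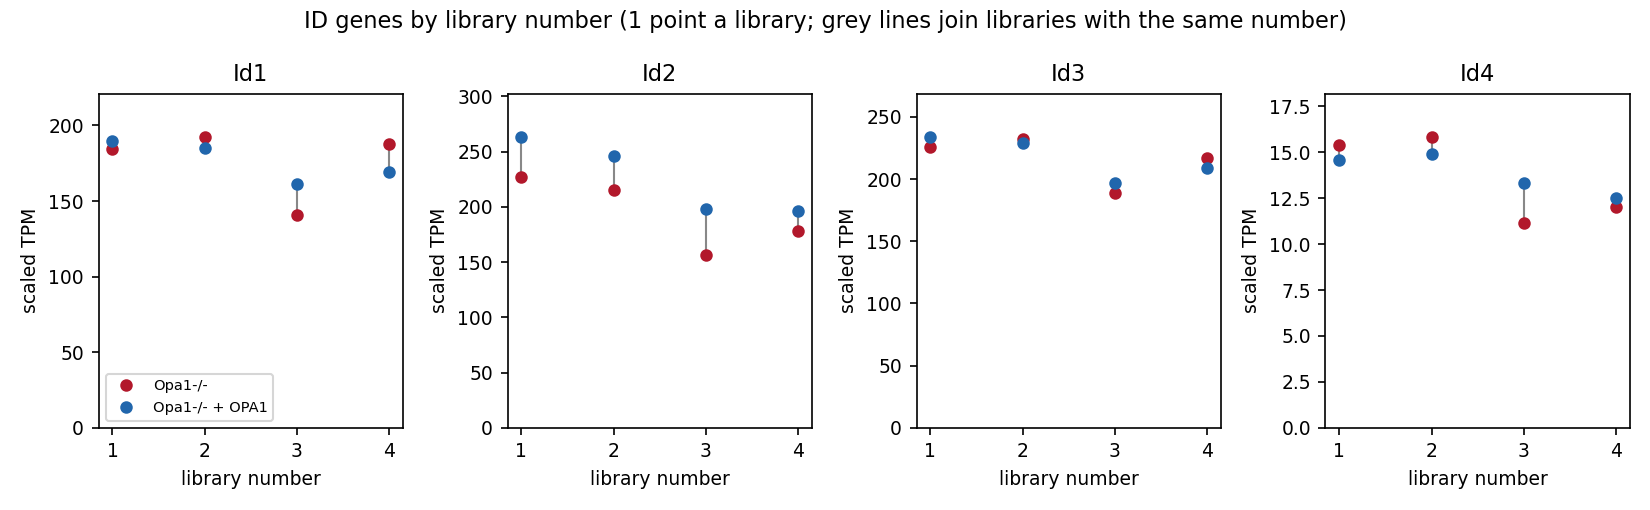
Scaled TPM of Id1, Id2, Id3 and Id4 by library number, 1 point a library, with grey lines joining the Opa1-/- and reconstituted libraries of the same number; each vertical axis starts at 0. Id2 is lower in the Opa1-/- library of every number, the other 3 genes differ in either direction, and library 3 of Opa1-/- is the lowest of its group in all 4.

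Beyond these members, 66 of 99 other genes of the pathway, listed by role, were tested; 12 were higher in Opa1-/-, 18 lower and 36 not called (45.5% called, beside 33% of all tested genes). Without both libraries numbered 3 the counts were 7 and 13. With a single library left out, 6 were higher without reconstituted library 3, 7 without reconstituted library 1, reconstituted library 4 or Opa1-/- library 1, and 15 without Opa1-/- library 4. Of all tested genes 26.7%, 25.5% and 28.7% were called without reconstituted library 1, reconstituted library 4 and Opa1-/- library 1. Of the other ligand genes 2 were tested: Inha, the inhibin alpha subunit, was higher at 11.1 ± 1.36 scaled TPM against 7.98 ± 0.888 (0.42, adjusted p = 0.00986), while Gdf11 was not called. The level of Inhba relative to Inha was 4.05 ± 0.739 in Opa1-/- and 13.4 ± 1.74 in reconstituted libraries. Of 6 other receptors and co-receptors 33.3% were called, beside 33% of all tested genes. The BMP co-receptor Rgma (0.27, adjusted p = 0.0227) and the activin type I receptor Acvr1b (0.16, adjusted p = 0.038) were higher and 4 were not called. Neither was called without both libraries numbered 3 (adjusted p = 0.073 and 0.0985) or with chromosome medians removed (0.16, adjusted p = 0.144, and 0.14, adjusted p = 0.0793), and without Opa1-/- library 4 the list had 4 higher. Of 6 other extracellular antagonists, none was higher and 3 were lower (50% called, beside 33% of all tested genes). Decorin (Dcn), a matrix proteoglycan that binds TGF-beta, was at 23.2 ± 0.669 against 34.5 ± 3.00 (-0.55, adjusted p = 0.000265). Vasorin (Vasn), which also binds TGF-beta, was at 45.2 ± 2.33 against 60.4 ± 0.924 (-0.41, adjusted p = 0.000204). The third was the BMP modulator Bmper (-0.26, adjusted p = 0.00695).

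Genes that activate or store latent TGF-beta held some of the widest differences of the pathway, in both directions: of 10 tested, 3 were higher and 4 lower. That is 70% called, beside 33% of all tested genes. Fbn2, the microfibril protein fibrillin-2, stood at 12.6, 11.02, 15.7 and 10.7 scaled TPM in Opa1-/- and at 3.88, 3.26, 4.03 and 3.97 in reconstituted libraries (1.48 ± 0.11, adjusted p = 4.85e-05). Its relative Fbn1 was lower, at 20.3 ± 4.34 against 26.5 ± 1.31 (-0.40, adjusted p = 0.0489), close to the threshold. Among the alternatives that ended the Fbn1 call were the replicate block (adjusted p = 0.0598), TPM as deposited (0.092), no filter on low values (0.116) and chromosome medians removed (0.0688). Leaving out any single reconstituted library also ended it (adjusted p from 0.0773 to 0.111). Without Opa1-/- library 4 the difference was -0.25 (adjusted p = 0.0321). Thbs1, the gene of thrombospondin-1, an activator of latent TGF-beta, stood at 142, 142, 161 and 139 against 261, 240.0, 253 and 242, far apart (-0.77 ± 0.05, adjusted p = 2.87e-05). Of the integrin subunits, Itgb8 was higher (0.48, adjusted p = 0.000767), as was Itgb3 (0.31, adjusted p = 0.0324; 0.0532 with the replicate block and 0.133 without both libraries numbered 3), and Itgb1 was lower (-0.39, adjusted p = 0.000612; -0.21 with chromosome medians removed). Itgav, the alpha subunit that pairs with each of these, was at 37.2 ± 3.21 against 37.1 ± 1.52 and was not called. With the replicate block the list had 2 higher and 3 lower of the 10, beside 33.3% of all tested genes called.

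Of 17 tested SMAD regulators and other SMADs, 1 was higher and 5 were lower, by at most 0.35 on the log2 scale; 35.3% were called, close to the 33% of all tested genes. The ubiquitin ligase gene Rnf111 (Arkadia) was higher by 0.16 (adjusted p = 0.0204; 0.07, adjusted p = 0.297, with chromosome medians removed). Pmepa1, a TGF-beta-induced inhibitor of the pathway, was lower at 51.8 ± 8.48 against 65.6 ± 2.57 scaled TPM (-0.35, adjusted p = 0.0283). Its call ended without both libraries numbered 3 (-0.27, adjusted p = 0.1) and with no filter on low values (adjusted p = 0.0713). It also ended without any single reconstituted library (adjusted p from 0.0501 to 0.071), Opa1-/- library 3 (0.0543) or Opa1-/- library 4 (0.0568). Also lower were the kinase gene Map3k7 (TAK1, -0.27, adjusted p = 0.0236, and -0.12, adjusted p = 0.258, with chromosome medians removed) and the ubiquitin ligase gene Nedd4l (-0.23, adjusted p = 0.00704, and -0.15, adjusted p = 0.074, with the length and GC trend removed). Without both libraries numbered 3 the list had 0 higher and 2 lower.

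The target genes of TGF-beta and activin did not share a direction: of 19 tested, 2 were higher, 6 were lower and 11 were not called, and with the replicate block 3 were higher and 10 lower. The share called was 42.1% without the block, beside 33% of all tested genes, of which 33.3% were called with it. Ctgf, a matricellular protein gene, stood at 55.2, 60.8, 61.1 and 60.7 scaled TPM in Opa1-/- and at 109, 108, 125 and 119 in reconstituted libraries (-0.94 ± 0.06, adjusted p = 1.57e-05). Timp1, an inhibitor of matrix metalloproteinases, was at 175 ± 17.2 against 268 ± 9.89 (-0.62, adjusted p = 0.00023). It lies on the X chromosome, whose median log2 difference was -0.36, and with chromosome medians removed it was lower by -0.26 (adjusted p = 0.02). Col1a2, a chain of type I collagen, was at 383 ± 43.6 against 562 ± 8.71 (-0.56, adjusted p = 0.000513), while Col3a1, the chain of type III collagen, was higher at 102 ± 6.44 against 76.1 ± 4.98 (0.42, adjusted p = 0.000893). Tgm2, a transglutaminase that crosslinks matrix, was also higher (0.43, adjusted p = 0.0197; 0.0542 without both libraries numbered 3). Acta2, smooth muscle actin, was at 620.4 ± 127 against 785 ± 134 (-0.35, adjusted p = 0.131), and at adjusted p = 0.00191 with the replicate block. The collagen genes of this list are also fibroblast markers, 5 of whose 7 tested members were lower and 1 higher (85.7% called, beside 33% of all tested genes). The summed level of chondrocyte and osteoblast markers was 60.7 to 72.6 in Opa1-/- against 114 to 127, with most of the gap in Acan (aggrecan, 16.4 against 63.0). Of the 3 tested markers of that list 2 were lower (66.7% called, beside 33% of all tested genes). They were Acan and Sox9 (24.3 against 30.6, -0.32, adjusted p = 0.00303). Col2a1 (25.1 against 25.5) was not called, and Sp7 (1.16 against 0.893) was not tested and showed no such gap. In bulk RNA fewer cells of a type and less RNA per cell cannot be told apart, and the part of these markers in the result was not tested.

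Of 7 tested BMP target genes 3 were higher, 1 was lower and 3 were not called (57.1% called, beside 33% of all tested genes). Tbx2, a T-box transcription factor gene, stood at 7.45, 8.45, 8.08 and 8.16 scaled TPM in Opa1-/- and at 4.93, 5.32, 4.48 and 4.88 in reconstituted libraries (0.61 ± 0.07, adjusted p = 0.000208). Gata6, a zinc finger transcription factor gene, was at 27.99 ± 0.859 against 19.7 ± 1.95 (0.49, adjusted p = 0.000706), and Atoh8, a basic helix-loop-helix gene, at 39.7 ± 5.52 against 30.7 ± 2.97 (0.35, adjusted p = 0.0259). The Atoh8 call ended with no filter on low values (adjusted p = 0.0653) and without reconstituted library 3 (0.0735) or 4 (0.0719). It also ended without Opa1-/- library 1 (0.0598) or 2 (0.0657). Bmper, counted here and among the antagonists, was the gene that was lower. Id4, of the same family as the ID genes above, was at 13.6 ± 2.36 against 13.8 ± 1.10 and was not called. Listed BMP targets under the filter were not tested. Of these, Dlx5 was at 0.334 ± 0.0357 against 0.0117 ± 0.0135 and Nog at 0.374 ± 0.107 against 1.09 ± 0.39, without overlap and in opposite directions. By limma-voom on recovered reads they differed by 4.07 (adjusted p = 2.81e-05) and -1.48 (adjusted p = 0.00507). For Hey1, Msx1 and Tbx3 the groups overlapped.

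**Figure D5:**
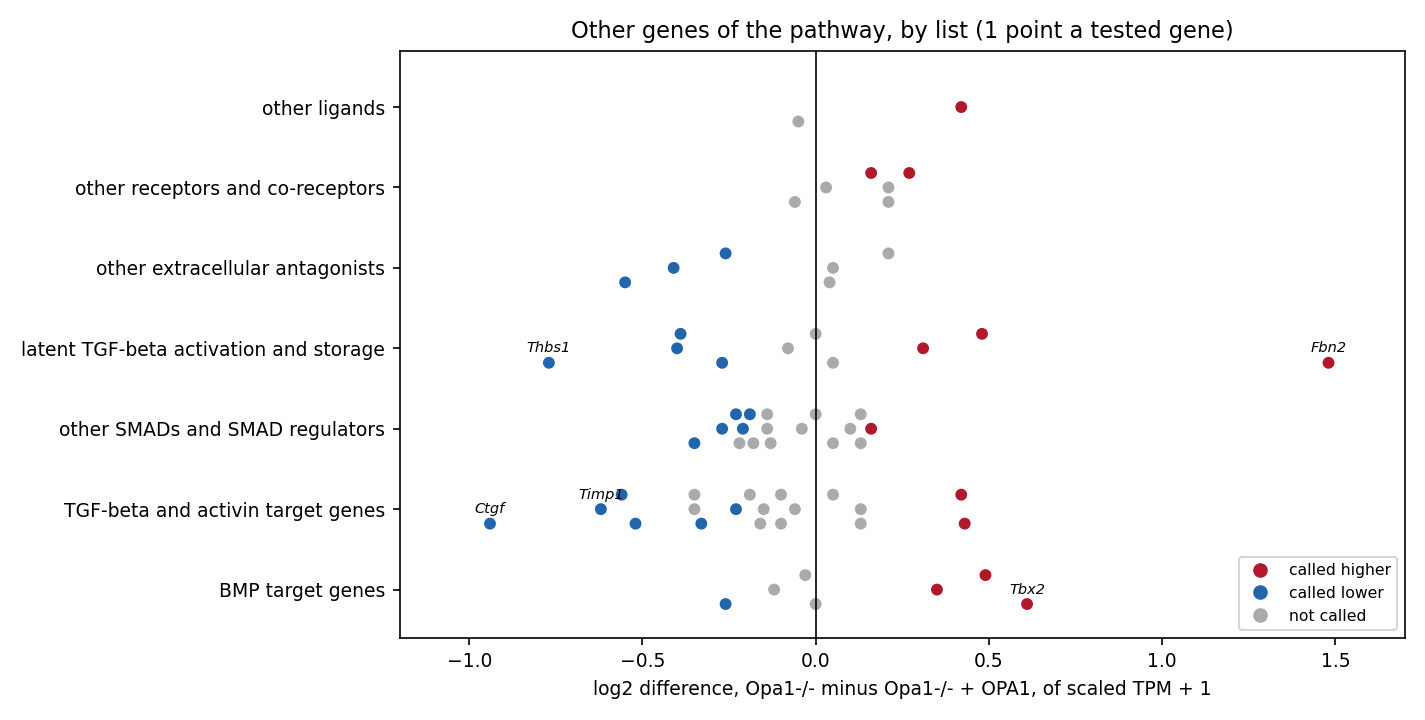
Log2 difference (Opa1-/- minus reconstituted, of scaled TPM + 1) of the tested other genes of the pathway by list, 1 point a gene, red for called higher, blue for called lower and grey for not called; called genes at 0.6 or more in size are named. Fbn2 at 1.48 and Ctgf at -0.94 are the extremes, and points lie on both sides of 0 in each list.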

How the data were processed

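RNA of immortalized MEFs was sequenced as 4 Opa1-/- and 4 Opa1-/- + OPA1 libraries, grouped by their titles. Per the labels' protocols, the RNeasy Plus kit gave the RNA and the NEBNext Ultra II RNA kit the libraries. The submitters' processing notes list STAR 2.5.2b, Subread 1.5.2, featureCounts and bcl2fastq 2.17, and 2 builds (GRCh38 and mm10) without saying what each was for. The sources used here do not state whether strand was kept. The authors deposited TPM values for 49315 genes per library, per the file headers. TPM corrects for gene length and for the total, so a few abundant RNAs shift all other values. In these files 4 small and ribosomal RNA genes took 5.29% to 15.5% of the TPM.

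Scaling factors were therefore taken from an unweighted trimmed mean of log ratios, with trims of 30% for ratios and 5% for levels. The 14272 genes that reached 1 TPM in 4 or more libraries were tested on log2(scaled TPM + 1) by limma-trend (limma 3.58.1 in R 4.3.3) without covariates, two-sided and with Benjamini-Hochberg adjustment. Positions and exon lengths came from GENCODE M21 (GRCm38), which held 49056 of the 49315 identifiers. Reads were recovered from TPM times exon length. Of the low values 95.0% to 95.5% came out whole within 0.05 of a read, giving 53.0 M to 57.6 M reads per library. All 8 libraries were kept as separate samples. Libraries of a group differed by more than sampling noise at this depth (lowest chi-square per degree of freedom 4.72). That cannot tell separate cultures from separate preparations of the same RNA. Tables and plots were made with pandas 2.3.3, numpy 2.4.6 and matplotlib 3.10.9 in Python 3.11.15, and the fit was tested on simulated data.

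Libraries with the same number deviated together from their group means over 9416 genes (r = 0.246, 0.225, 0.317 and 0.119, other pairs -0.32 to 0.114). This comes from the data, as the labels do not say that a number marks a culture or a day. The replicate number as a block was an alternative, printed where it changed a call. The other alternatives were other scalings, pseudocounts and filters, limma without a trend, limma-voom on recovered reads, chromosome medians removed, length and GC trends removed (splines with 4 degrees of freedom), and libraries left out.

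The members and lists were chosen with earlier results of these data known. Values by library are given for called members whose groups do not overlap and for the most abundant member of each role. From each other list up to 3 called genes with the largest difference are named in each direction. Smad2, Smad3, Id2, Itgav, Acta2, Gdf11, Id4, Acan and Sox9, and the ratios of members, were added after their values were seen. The same holds for Acvr2b, Bmpr1b, Dlx5, Nog, Hey1, Msx1 and Tbx3.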

Additional observations from a re-analysis of the deposited data

Results flagged for a closer look

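In 11 of 116 sets of 4 libraries looked at (the members and the genes named beside them, by group), 1 library stood apart from the other 3, with a gap to the nearest of them, as a share of the range of the 4, above the 95% critical value of Dixon's test. Chance gives about 1 in 20. Opa1-/- library 4 was low for Bmpr2 (12 scaled TPM, the others 15.4 to 16.1), Smad2 (55.0, the others 77.3 to 78.4), Smad4 (77.1, the others 94.9 to 97.9) and Itgb1 (328, the others 376 to 381). Opa1-/- library 3 was low for Id1 (141, the others 184 to 192) and high for Thbs1 (161, the others 139 to 142), and Opa1-/- library 1 was low for Ctgf (55.2, the others 60.7 to 61.1). Among reconstituted libraries, library 2 was low for Ltbp2 (10.1, the others 11.2 to 11.3) and Inhba (103, the others 107), library 4 was low for Fstl1 (104, the others 106), and library 1 was high for Opa1 (15.6, the others 14.5 to 14.6).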

How the results depend on the processing

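All 15 called members kept their direction in the 20 alternatives, and 7 (Tgfb2, Ltbp2, Tgfbr3, Inhba, Grem1, Smad6 and Smad7) were called in each. Over all tested members and alternatives, 551 of 619 values stayed on the same side of the threshold in the same direction, 41 lost a call, 4 gained one and 23 changed sign, all of the last in uncalled genes near 0; of the named other pathway genes 401 of 480 stayed and 79 lost a call. The cause of these changes was not tested. Members called higher fell from 6 to 3 without both libraries numbered 3, and ranged from 3 to 7 with a single library left out. Members called lower fell from 9 to 6 with TPM as deposited and to 6 with chromosome medians removed. With a single library left out they ranged from 8 to 9. Other pathway genes called higher fell from 12 to 7 without both libraries numbered 3 and ranged from 6 to 15 with a single library left out. Those called lower fell from 18 to 11 with TPM as deposited and ranged from 13 to 18 with a single library left out. For TPM as deposited and for chromosome medians removed, the share of all tested genes called was not worked out. The falls in these settings therefore cannot be read as particular to the members or the pathway. The Opa1 difference ranged from -0.11 to -0.04 with a single library left out, and was -0.03 with chromosome medians removed and -0.02 with the length and GC trend removed.

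Ltbp1 stood at 0.00 with the length and GC trend removed, with and without the replicate block, and Smad1 at 0.01 in both and at 0.13 with chromosome medians removed. Tgfbr2 stood at -0.00 with TPM as deposited, -0.07 without both libraries numbered 3, -0.09 with chromosome medians removed and -0.01 with limma-voom, and from -0.06 to 0.05 with a single library left out. Id1 stood at 0.05 without both libraries numbered 3 and 0.01 with chromosome medians removed (-0.05 to 0.10 with a library left out), and Id3 at 0.01 and 0.14 (-0.06 to 0.05). The replicate block ended the calls of Bmpr1a (adjusted p = 0.0654 by limma), Itgb3 (0.0532) and Fbn1 (0.0598) and added that of Id2 (0.012); it changed no other call of a member or of a gene named by the rule.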
